A study of Mus musculus with 18 samples.

Results

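Of 17 Dbx1-derived preBötC neurons with values, 12 were inhibitory-marked and 5 were unmarked. A neuron was chosen as marked when Slc32a1 or Slc6a5 reached 1 FPKM (fragments scaled by gene length and library total), and as unmarked otherwise. Slc32a1 encodes the vesicular transporter that loads GABA and glycine into synaptic vesicles, and Slc6a5 encodes the plasma membrane transporter GlyT2, which supplies glycine to glycinergic terminals. Because these transcripts chose the members, their own levels are given as a description, without a test.

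The preBötzinger complex (preBötC) of the ventral medulla generates the inspiratory rhythm. Its core interneurons descend from precursors that express the homeobox gene Dbx1 and are known for releasing glutamate, which they load into vesicles with VGLUT2, the product of Slc17a6. Inhibitory neurons of the hindbrain make GABA with the glutamic acid decarboxylases Gad1 and Gad2, take up glycine with Slc6a5, and load both transmitters with Slc32a1.

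The neurons came from pups at postnatal days 0 to 2, the offspring of Dbx1cre and Ai148 mice on a C57Bl/6J or a mixed C57Bl/6J and CD1 background. Cre from the Dbx1 locus turned on the calcium indicator GCaMP6f in cells with a history of Dbx1 expression, and neurons were picked by eye for rhythmic fluorescence in slices. Each was recorded by whole-cell patch clamp, its cytoplasm was aspirated into the pipette, and the cDNA was amplified and sequenced (Patch-Seq). By their electrical properties 7 neurons were Type-1 (delayed excitation), 9 were Type-2 (sag potential) and 1 was Unknown, and all shared the same genotype with no treatment. There were fewer slices than neurons and the labels do not tie a neuron to its slice or pup, so p-values measure only the spread between these libraries. Sample 10 has no column in the tables and was not analysed here.

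In the plot of transporter and GABA genes by neuron, the marked neurons fell into 3 patterns. Neurons 3, 8, 9 and 11 had both transcripts at 1 FPKM or more. Neurons 2, 5, 13, 15 and 17 reached it with Slc6a5 only, and Neurons 6, 7 and 12 with Slc32a1 only. The unmarked neurons were Neurons 1, 4, 14, 16 and 18.

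**Figure D1:**
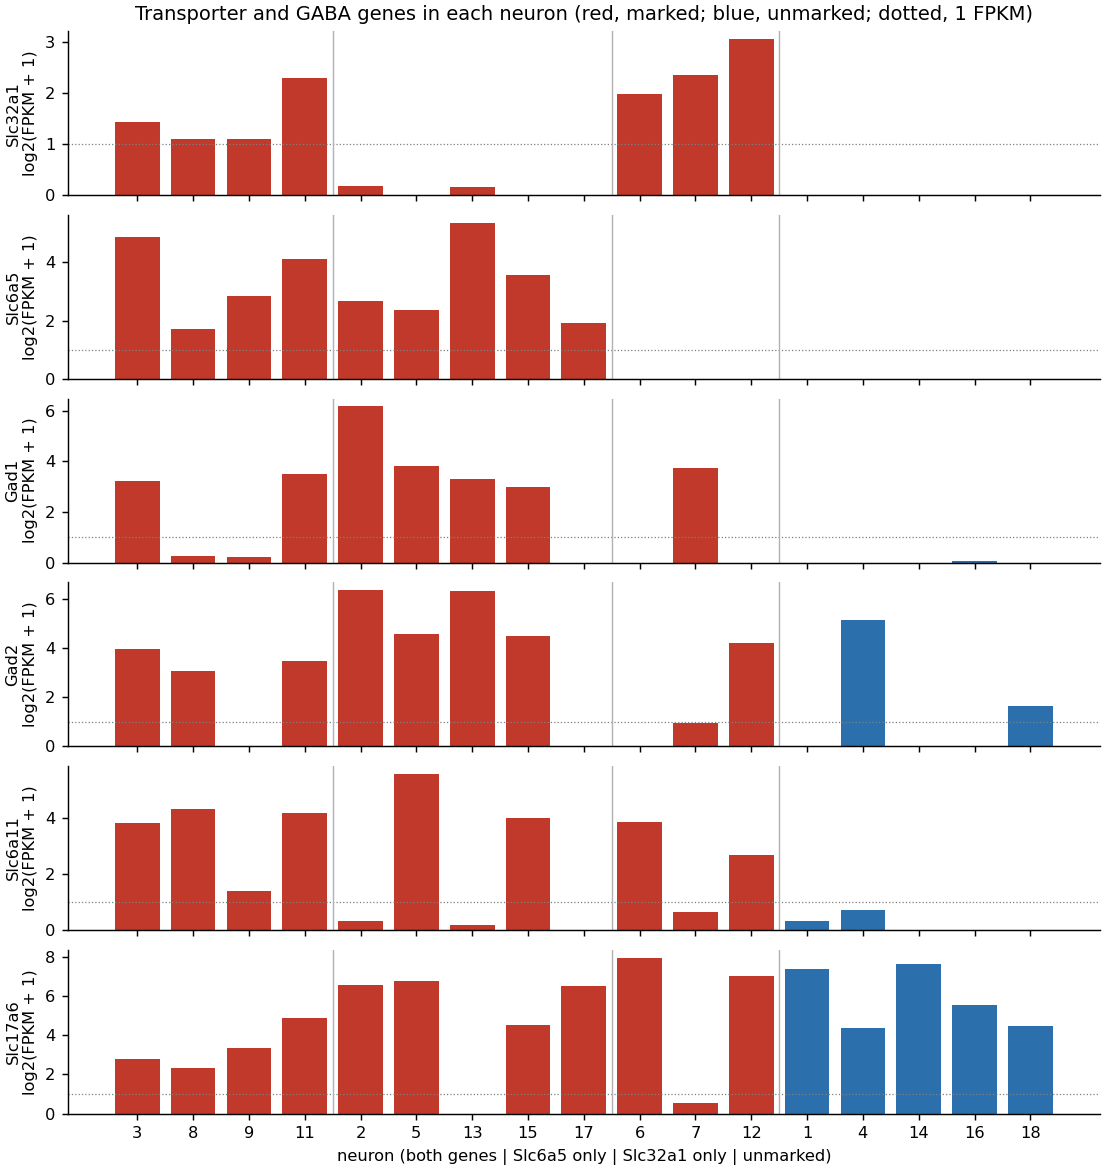
Level of 6 genes in each of the 17 neurons as log2(FPKM + 1), with bars starting at 0, marked neurons in red, unmarked neurons in blue and a dotted line at 1 FPKM. Slc32a1 and Slc6a5 chose the classes and are at 0 in all 5 unmarked neurons. Slc17a6 reaches 1 FPKM in 10 of 12 marked and 5 of 5 unmarked neurons.

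Slc6a5 varied more among the marked neurons than Slc32a1. It was highest in Neuron 13, at 39.8 FPKM, followed by 28.3 FPKM in Neuron 3, 16.2 FPKM in Neuron 11 and 10.8 FPKM in Neuron 15. Neurons 9, 2 and 5 held 6.20, 5.33 and 4.15 FPKM, and Neurons 17 and 8 held 2.81 and 2.31 FPKM. Slc32a1 reached no more than 7.37 FPKM, in Neuron 12, and Neurons 7, 11 and 6 held 4.16, 3.92 and 2.97 FPKM. Neuron 3 held 1.69 FPKM of Slc32a1, and Neurons 8 and 9 each held 1.14 FPKM. The values just inside the limit were the 1.14 FPKM of Slc32a1 in Neurons 8 and 9, each of which also passed with Slc6a5. Just outside it were 0.13 FPKM of Slc32a1 in Neuron 2 and 0.11 in Neuron 13, both marked by Slc6a5. All 5 unmarked neurons had 0 fragments of both genes. A count of 3 fragments, the most that a count of 0 allows, was worth 0.0779 to 0.470 FPKM of Slc32a1 and 0.0303 to 0.183 FPKM of Slc6a5 across the 17 libraries, all below the limit of the rule. This covers counting error only, since the amplified cDNA carries no molecular identifiers. A limit of 0.5 or 2 FPKM gave the same classes, and a limit of 5 FPKM left 7 marked neurons.

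On GRCm38, in the GENCODE M21 annotation, Slc32a1 lies on chromosome 2 at 158610767 to 158615748 and Slc6a5 on chromosome 7 at 49910146 to 49963856, both on the plus strand. Slc17a6 follows Slc6a5 on the same strand of chromosome 7 at 51622006 to 51671119. Gad1 and Gad2 lie on chromosome 2, at 70553072 to 70602014 and at 22622205 to 22693874.

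The marked class was spread over the electrophysiological types and ages. It held 4 of 7 Type-1 neurons (57.1%, exact Clopper-Pearson 95% interval 18.4 to 90.1%) and 7 of 9 Type-2 neurons (77.8%, 40.0 to 97.2%), with the Unknown neuron also marked. The shares did not differ detectably between types (Fisher's exact test, two-sided, p = 0.596). By age, 3 of 5 neurons at postnatal day 0, 4 of 6 at day 1 and 5 of 6 at day 2 were marked (exact permutation test of the mean day, two-sided, p = 0.528). Marked libraries held 2280477 to 13762335 fragments and unmarked libraries 3838187 to 9269250 (exact permutation p = 0.170). Genes with a fragment numbered 11199 to 18174 in marked and 10434 to 13430 in unmarked neurons (exact permutation p = 0.111), and the share of fragments on the 100 highest genes was 21.7 to 34.3% and 20.0 to 35.5% (exact permutation p = 0.354). After adjustment over these 3 library measures the p-values were 0.254, 0.254 and 0.354.

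Slc17a6, the marker of glutamatergic neurons, was present beside the inhibitory transporters in most marked neurons. The unmarked Neurons 1, 4, 14, 16 and 18 held 162, 19.9, 196, 44.8 and 21.3 FPKM. Among the marked neurons the level ran from 0 to 246 FPKM with a median of 25.0. Neuron 13, the neuron with the highest Slc6a5, had 0 fragments of Slc17a6, and Neuron 7 had 0.45 FPKM. At 1 FPKM or more, Slc17a6 was found in 10 of 12 marked neurons (83.3%, exact 95% interval 51.6 to 97.9%) and in 5 of 5 unmarked neurons (100%, 47.8 to 100%). The 4 neurons with both inhibitory transporters held 4.05 to 28.2 FPKM, while those with Slc6a5 only held up to 107 FPKM and those with Slc32a1 only up to 246 FPKM. The ranges of marked and unmarked neurons overlapped. The mean log2(FPKM + 1) was 4.43 ± 2.64 (SD, n = 12) in marked and 5.87 ± 1.54 (SD, n = 5) in unmarked neurons (exact permutation test, two-sided, p = 0.273). On counts, edgeR gave a log2 fold change of -0.47 with a standard error of 1.06 (adjusted p = 0.859).

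The direction of the Slc17a6 difference was not the same in both types. In Type-1 neurons the mean log2(FPKM + 1) was 6.43 in 4 marked and 4.79 in 3 unmarked neurons, a difference of 1.63. In Type-2 neurons it was 3.59 in 7 marked and 7.48 in 2 unmarked neurons, a difference of -3.90. Every marked Type-2 neuron lay below both unmarked ones, which was not tested. How many other genes separate in this way within Type-2 was not counted, and with 2 unmarked neurons such a separation says little. The edgeR interaction of class and type for Slc17a6 did not pass the adjustment over all genes (p = 0.0376, adjusted p = 0.787). Over 31541 genes with a fragment in the classified neurons, 0 interactions were called by edgeR, 1981 had an unadjusted p under 0.05, and the lowest adjusted p was 0.121. No other tool was run on the interaction. Of the other vesicular glutamate transporters, Slc17a7 had 0 fragments in all 17 neurons, and Slc17a8 reached 1.07 FPKM in a single marked neuron.

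Across all genes, edgeR calls required an adjusted p below 0.01 together with a log2 fold change beyond 1.5 in either direction. Of 32626 genes, 1 was called (0.00307%), and that gene was Xist, lower in marked neurons. An unadjusted edgeR p under 0.05 was found in 7023 genes (21.5%), and in 3940, 4145, 4180, 4186 and 4531 genes without Neuron 18, 16, 1, 4 or 14. Unadjusted p-values of this fit are therefore not read as results here and serve only to rank genes for naming. DESeq2 called 598 genes as higher in marked neurons (4.3% of the 13901 with an adjusted p) and 39 as higher in unmarked neurons (0.281%). The latter count was 16 without Neuron 18 and 20 without Neuron 1. It was 4, beside 488 genes higher in marked neurons, under a filter of at least 10 fragments in at least 4 neurons. The balance was not stable either, with 671 and 518 genes when postnatal day was a covariate, and it turned at a limit of 5 FPKM, where 159 of 261 called genes were higher in unmarked neurons. Of those 598 genes, 422 had 0 fragments in all 5 unmarked neurons, 252 had a fragment in 5 neurons or fewer of the 17, and 135 had an exact p under 0.05. Xist was the single gene called by both tools. By the exact permutation test on mean log2(FPKM + 1), 531 of the 32626 genes were higher in marked neurons at an unadjusted p under 0.05 (1.63%) and 430 were higher in unmarked neurons (1.32%). These became 340 and 554 on log2(FPKM + 10), 437 and 502 without Neuron 16, 394 and 439 without Neuron 8, 428 and 434 without Neuron 3, and 341 and 365 without Neurons 1, 14 and 18, so the balance of directions turned in these settings. Among the settings where it did not turn, the counts were 662 and 370 on log2(FPKM + 0.1). They were 581 and 282 for Slc32a1 alone and 1192 and 260 for Slc6a5 alone. Among the 13140 genes at 1 FPKM or more in at least 4 neurons the counts were 492 (3.74%) and 290 (2.21%). That filter favours genes high in marked neurons, since 1007 of its genes passed with 0 unmarked neurons at 1 FPKM and 1 passed with 0 marked neurons. Gene lists are therefore described over all their genes with a fragment. Over all 32626 genes 21046 had a higher mean in marked neurons, at a median difference of 0.03, and a gene found in few neurons has 12 marked but only 5 unmarked neurons to be found in. Each count of list genes with a higher mean in marked neurons has to be set beside this share. The lowest adjusted exact p was 0.354 over the 13140 genes and 0.879 over all 32626, so no single gene passed that test after adjustment. All exact p-values of genes given here are two-sided and unadjusted, and the smallest the design allows is 0.000162. Gabra5, Gria4, Grm7, Kcnip1, Dpp6, Adcyap1r1, Abat, Slc1a2, Gja1, Fabp7, S100b, Syt1, Cplx1 and Tubb3 are list genes that were singled out after their values were seen. Up to 4 other genes per list were named for the lowest edgeR p in this same contrast. Among them were Sall3, Kcnd3, Kcnc4, Calb2, Tacr1, Oprk1, Slc1a3, Aqp4, Aldh1l1, Olig2 and Tmem119. The values and p-values of genes named in this way are a description and no support.

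Of the 7 genes that make and clear GABA and glycine, 6 had a higher mean in marked neurons, against 21046 of all 32626 genes. Their median difference in mean log2(FPKM + 1) was 0.76. Of the 7 genes 2, Gad1 and Slc6a11, had an exact p under 0.05, against 1.63% of all genes. Among the 13140 genes at 1 FPKM or more in at least 4 neurons that share was 3.74%. Gad1 was at 0 FPKM in Neurons 1, 4, 14 and 18 and at 0.03 FPKM in Neuron 16, and so was below 1 FPKM in all 5 unmarked neurons. Of the marked neurons, Neuron 2 held 70.8 FPKM, and Neurons 5, 7, 11, 13, 3 and 15 held 13.1, 12.2, 10.2, 8.94, 8.39 and 6.95 FPKM. Neurons 8 and 9 held 0.19 and 0.17 FPKM, and Neurons 6, 12 and 17 held 0. The mean log2(FPKM + 1) was 2.27 ± 2.08 (SD, n = 12) in marked and 0.01 ± 0.02 (SD, n = 5) in unmarked neurons (exact permutation p = 0.0407). The adjusted p was 0.0753 in edgeR and 1.19e-05 in DESeq2. When neurons were classed by Slc32a1 alone, the difference in Gad1 was -0.08, against 2.26 by the rule.

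Gad2 did not follow the classes in the same way. It was 35.3 FPKM in the unmarked Neuron 4 and 2.09 FPKM in the unmarked Neuron 18, and 0 in the other unmarked neurons. Neuron 4 thus held a GABA-synthesising enzyme with 0 fragments of both transporters. In marked neurons Gad2 ran from 0 to 82.2 FPKM with a median of 12.5, and the ranges overlapped (exact permutation p = 0.173, edgeR adjusted p = 0.706). At 1 FPKM or more, Gad1 or Gad2 was found in 9 of 12 marked neurons (75.0%, exact 95% interval 42.8 to 94.5%) and in 2 of 5 unmarked neurons (40.0%, 5.27 to 85.3%). Both enzymes were found in 6 marked and 0 unmarked neurons. A transporter of the rule, Slc17a6 and at least 1 of the enzymes were present together in 7 of the 17 neurons.

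Slc6a11, the GABA transporter GAT-3 that is best known from astrocytes, was below 1 FPKM in all 5 unmarked neurons, with at most 0.66 FPKM in Neuron 4. It reached 1 FPKM in 8 marked neurons, up to 46.5 FPKM in Neuron 5 (exact permutation p = 0.0220, edgeR adjusted p = 0.170, DESeq2 adjusted p = 0.00104). Slc6a9, the glial glycine transporter GlyT1, reached 1 FPKM in 2 marked and 1 unmarked neuron (exact permutation p = 0.630). Abat, which degrades GABA, was at 1 FPKM or more in 12 of 12 marked and 4 of 5 unmarked neurons. Of 7 genes of glutamate handling with a fragment, 2 had a higher mean in marked neurons, and 0 had an exact p under 0.05 in either direction. Their median difference was -0.26.

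**Figure D2:**
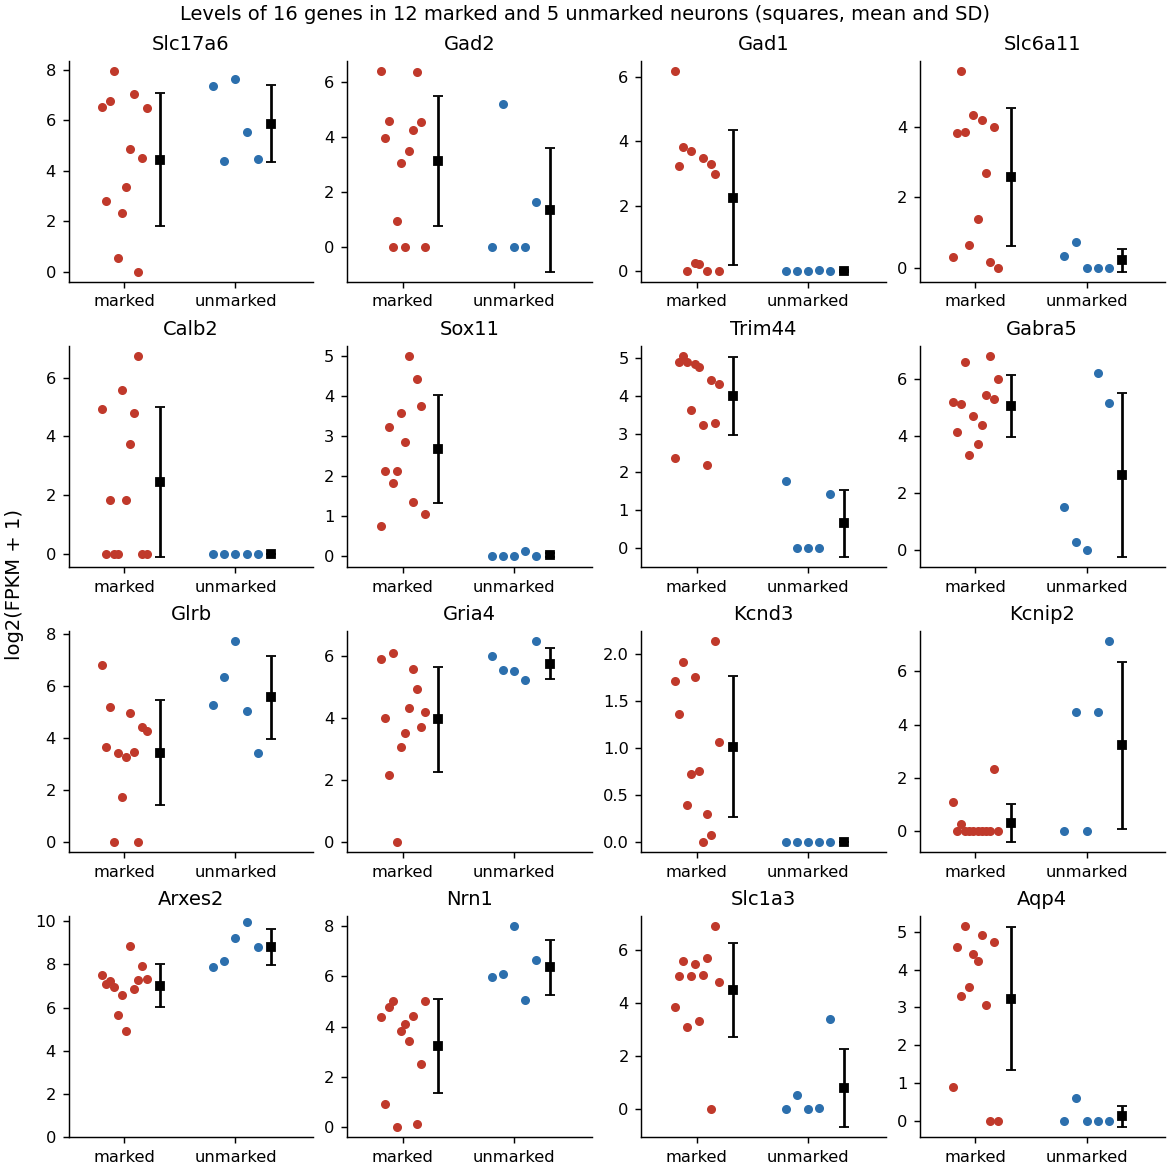
Level of 16 genes as log2(FPKM + 1) in 12 marked (red) and 5 unmarked (blue) neurons, with black squares and bars for the mean and SD of each class. Gad1, Calb2, Sox11 and Kcnd3 are at or near 0 in all unmarked neurons, whereas Slc17a6, Gad2 and Glrb overlap. Trim44, chosen after its values were seen, and Sox11 do not overlap between the classes.

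Lineage factors of hindbrain inhibitory neurons gave no gene with an exact p under 0.05. Of 19 such factors 17 had a fragment, 13 of these with a higher mean in marked neurons, at a median difference of 0.21. Over all 32626 genes, 21046 had a higher mean in marked neurons. Pax2, a factor of inhibitory interneurons, reached 1 FPKM in 4 marked and 3 unmarked neurons (exact permutation p = 0.680). Lhx1 and Lhx5 reached 1 FPKM in 7 and 5 marked and in 3 and 3 unmarked neurons (exact permutation p = 0.964 and 0.206). Pax8 was above the highest unmarked level of 0.78 FPKM in 6 marked neurons, and Tfap2b was above 0.08 FPKM in 3 (exact permutation p = 0.1797 and 0.3743). Gata3 had medians of 0.86 FPKM in marked and 0.64 FPKM in unmarked neurons (exact permutation p = 0.389). Sall3, Gbx2 and Gbx1 were below 1 FPKM in all unmarked neurons and reached it in 6, 4 and 1 marked neurons (exact permutation p = 0.0795, 0.307 and 0.618), and the DESeq2 adjusted p of Sall3 was 0.00108.

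Factors linked to excitatory or Dbx1-derived lineages were sparse. Of 22 factors 20 had a fragment, 13 of these with a higher mean in marked neurons, against 21046 of all 32626 genes. The median difference was 0.018, and 3 factors reached 1 FPKM in at least 4 neurons. Dbx1 itself had 0 fragments in all 17 neurons. Dbx2, a homeobox factor found together with Dbx1 in progenitors, reached 1 FPKM in 8 of 12 marked neurons and, among unmarked neurons, only in Neuron 18 at 23.4 FPKM (exact permutation p = 0.109). Evx1, a factor of Dbx1-derived V0 neurons, was at 88.8 FPKM in the unmarked Neuron 18 and at 1.15 FPKM in the marked Neuron 8, and at 0 in the rest. Evx2 reached 1 FPKM in 2 marked and 2 unmarked neurons, and Pax7 in 0. Barhl2 and Lhx2 each reached it in 1 marked neuron, and Sim1 in 0.

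Of 25 genes of GABA and glycine receptors and associated proteins 23 had a fragment, and 9 of these had a higher mean in marked neurons, at a median difference of -0.18. The single gene of this list with an exact p under 0.05, Gabra5, was higher in marked neurons, and 1 of 23 genes is near the 1.63% of all genes. Gabra5, the alpha5 subunit of the GABA-A receptor, was 8.97 to 110 FPKM in all 12 marked neurons. Of the unmarked neurons, Neuron 16 held 72.3 FPKM and Neuron 18 held 34.5, within the marked range, while Neurons 1, 4 and 14 held 1.83, 0.20 and 0 FPKM. The exact permutation p was 0.0158, and it was 0.0676 without Neuron 14. Glrb, the beta subunit of glycine receptors, was 9.73 to 208 FPKM in unmarked neurons and 0 to 109 FPKM in marked neurons, a difference of -2.13 in mean log2(FPKM + 1) (exact permutation p = 0.0507). The subunits Glra1, Glra2 and Glra3 and the scaffold Gphn had exact permutation p-values of 0.537, 0.680, 0.886 and 0.303.

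Receptors for glutamate had a median difference of -0.12 over 23 genes, of which 9 had a higher mean in marked neurons. In this list 2 genes had an exact p under 0.05, both higher in unmarked neurons, against 1.32% of all genes. Of the 23 genes, 18 were at 1 FPKM or more in at least 4 neurons, and among all such genes that share was 2.21%. The AMPA receptor subunit Gria4 was 36.4 to 87.7 FPKM in unmarked and 0 to 67.1 FPKM in marked neurons (exact permutation p = 0.0341, 0.0797 without Neuron 18). The metabotropic receptor Grm7 was 5.51 to 47.5 FPKM in unmarked and 0 to 25.1 FPKM in marked neurons (exact permutation p = 0.0490, 0.125 without Neuron 4). Both ranges overlapped. Gria3 and Grin2c reached 1 FPKM in 3 and 1 marked and in 0 unmarked neurons.

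Channels of the A-type and Ih currents, which separate Type-1 from Type-2 neurons electrically, split in both directions. Of 16 genes, 8 had a higher mean in marked neurons, at a median difference of -0.08. At an exact p under 0.05, 3 genes were higher in marked and 2 higher in unmarked neurons, against 1.63% and 1.32% of all genes. Of the 16 genes, 15 were at 1 FPKM or more in at least 4 neurons, and among all such genes those shares were 3.74% and 2.21%. Kcnd3, the A-type channel Kv4.3, had 0 fragments in all unmarked neurons and up to 3.41 FPKM in marked neurons, 11 of which had a fragment (exact permutation p = 0.00970). The adjusted p of Kcnd3 was 0.0753 in edgeR and 1.15e-07 in DESeq2. Kcnc4, the channel Kv3.4, reached 1 FPKM in 6 marked and 0 unmarked neurons, and the Kv4 auxiliary subunit Kcnip1 in 9 and 1 (exact permutation p = 0.0367 and 0.0430). Without Neuron 1 their p-values were 0.0687 and 0.0978. The DESeq2 adjusted p of Kcnc4 was 0.00028.

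Kcnip2, another auxiliary subunit of Kv4 channels, was 139 FPKM in Neuron 18, 21.3 in Neuron 16 and 21.2 in Neuron 4, which are the 3 unmarked Type-1 neurons, and 0 in the 2 unmarked Type-2 neurons. In marked neurons it reached at most 4.05 FPKM, in the Type-1 Neuron 15 (exact permutation p = 0.0147, 0.05 without Neuron 4). The edgeR log2 fold change was -6.40 with a standard error of 1.93 (adjusted p = 0.0842), and the interaction with type had an adjusted p of 0.776. Dpp6, an auxiliary subunit of the same channels, was 7.39 to 28.2 FPKM in unmarked and 0.15 to 21.9 FPKM in marked neurons (exact permutation p = 0.0215, 0.0621 without Neuron 14).

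Peptides and calcium-binding proteins were each found in part of the neurons. Of 18 neuropeptide genes 16 had a fragment, 11 of these with a higher mean in marked neurons, against 21046 of all 32626 genes. Their median difference was 0.37, with 0 genes at an exact p under 0.05. Their summed level went the other way, with a median of 229 FPKM in marked and 1675 FPKM in unmarked neurons, and the ranges of 70.7 to 713 and 32.5 to 12758 FPKM overlapped. Sst, the peptide somatostatin, reached 1 FPKM in 10 of 12 marked neurons with a median of 67.0 and a maximum of 661 FPKM. Among the unmarked neurons it was 12698 FPKM in Neuron 14 and 4904 FPKM in Neuron 4, and at most 0.17 FPKM in the other 3. The exact permutation p was 0.927, and edgeR gave a log2 fold change of -4.78 with a standard error of 1.53 (adjusted p = 0.112). Cbln1 and Nmb reached 1 FPKM in 4 and 2 marked and 0 unmarked neurons, and Crh in 0 neurons. Calb2, the calcium-binding protein calretinin, had 0 fragments in all unmarked neurons and ran from 2.52 to 105 FPKM in 7 marked neurons, with 0 in the other marked neurons (exact permutation p = 0.0650). The adjusted p of Calb2 was 0.0999 in edgeR and 1.31e-17 in DESeq2. Pvalb reached 1 FPKM in 2 marked neurons.

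Of 11 peptide receptors with a fragment, 8 had a higher mean in marked neurons, against 21046 of all 32626 genes. Their median difference was 0.18, and 1 had an exact p under 0.05, against 1.63% of all genes. This was Adcyap1r1, the receptor of the peptide PACAP. It was 1 FPKM or more in 11 marked and 2 unmarked neurons, a difference of 1.68 in mean log2(FPKM + 1) (exact permutation p = 0.0406, 0.140 without Neuron 14). Tacr1, the receptor of substance P, was at 12.9 FPKM in Neuron 4 and 28.8 FPKM in Neuron 14 and had 0 fragments in the rest (exact permutation p = 0.0735, DESeq2 adjusted p = 2.1e-14). These are also the 2 unmarked neurons with high Sst. Tacr3 and the kappa opioid receptor Oprk1 reached 1 FPKM in 2 and 3 marked neurons, and Sstr4 in 0. The DESeq2 adjusted p of Oprk1 was 7.45e-07, beside an exact permutation p of 0.307.

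**Figure D3:**
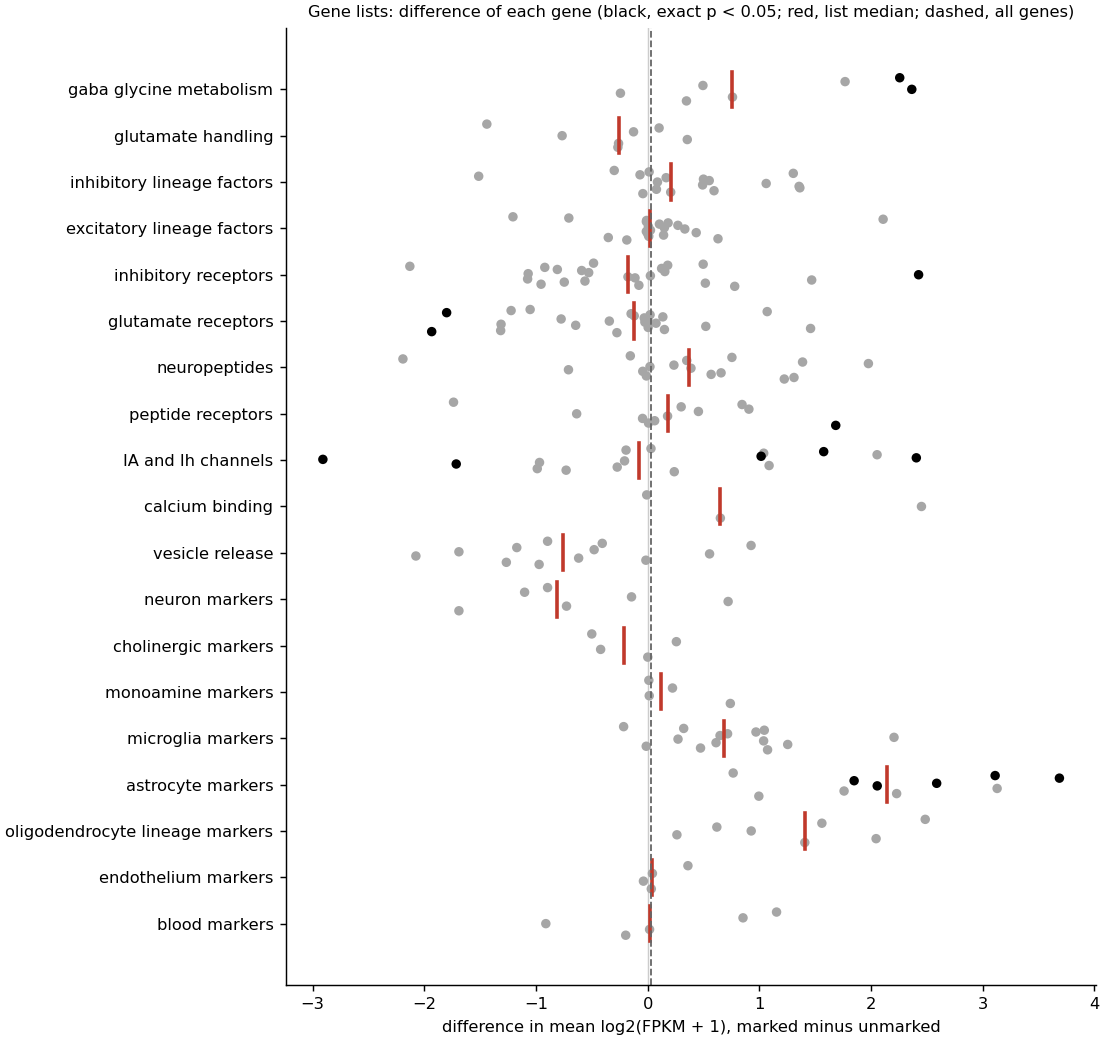
Difference in mean log2(FPKM + 1), marked minus unmarked, of each gene with a fragment in 19 gene lists, with genes at an exact p under 0.05 in black, others in grey, list medians as red lines and the median of all 32626 genes, 0.03, as a dashed line. All 10 astrocyte markers and 6 of 7 genes of GABA and glycine metabolism lie above 0, and 10 of 12 genes of vesicle release lie below it. Of all 32626 genes, 21046 had a difference above 0.

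Named by their rank in edgeR p were genes with a fragment in 6 or more neurons and 1 FPKM or more in at least 4. The ranking chose genes of low p in the same contrast, so their values and p-values are a description and no support. The 10 of lowest edgeR p in the direction of the marked class had an adjusted p of 0.0753 each. They were Neto1 (an auxiliary subunit of kainate receptors), Stx8 (an endosomal SNARE), Sox11 (a factor of immature neurons), Tipin and Rpa1 (DNA replication), Jpt2, Tor2a (a torsin), S1pr1 (a sphingosine 1-phosphate receptor), Magt1 (a magnesium transporter) and Asf1a (a histone chaperone). All 10 were below 1 FPKM in every unmarked neuron and reached it in 8 to 11 marked neurons, so they met the level limit through the marked class alone and had to differ. Sox11 was 0.67 to 31.1 FPKM in marked neurons and at most 0.09 FPKM in unmarked neurons, without overlap. Tipin had the largest difference of these 10, 4.61 in mean log2(FPKM + 1), with a marked median of 48.2 FPKM. Fold changes of Neto1, Stx8, Rpa1, Jpt2, Tor2a, S1pr1 and Asf1a are not given, because the unmarked class had 0 fragments.

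In the direction of the unmarked class the same rule gave Kcnip2 and Sst, described above, and Rrm2b (a ribonucleotide reductase subunit), Gm22358, Gm17545, Arxes2, Gm24988, Nrn1, Gm7493 and Id4, with edgeR adjusted p-values from 0.0842 for Kcnip2 to 0.211 for Id4. Nrn1, the neurite outgrowth protein neuritin, was 62.6, 67.5, 256, 32.3 and 101 FPKM in Neurons 1, 4, 14, 16 and 18 and at most 31.9 FPKM in marked neurons. The classes did not overlap, though Neurons 6 and 16 nearly met (exact permutation p = 0.00388, edgeR log2 fold change -2.75, standard error 1.01, adjusted p = 0.200). Arxes2 was 236 to 1013 FPKM in unmarked and 29.3 to 459 FPKM in marked neurons (exact permutation p = 0.00259); its close paralog could share reads. Rrm2b reached 1 FPKM in 3 unmarked and 1 marked neuron (exact permutation p = 0.0154). Without Neuron 16 its p was 0.0522, and its difference went from -1.77 to -0.99. The annotation gives Gm22358 and Gm24988 as snoRNAs and Gm7493 as a processed pseudogene, so their counts are uncertain. Id4, an inhibitor of bHLH factors, overlapped widely (exact permutation p = 0.131).

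Across all 32626 genes, 3 were higher in marked neurons without overlap of the classes (0.0092%) and 6 were higher in unmarked neurons without overlap (0.0184%). The former were Sox11, Trim44 and Gm43444, and the latter Nrn1, Atp2b3, Crtac1, Gucy1a1, Tacc2 and Zfp941. Apart from Sox11 and Nrn1 these were chosen after their values were seen. Trim44 was 3.50 to 32.1 FPKM in marked and at most 2.41 FPKM in unmarked neurons. Atp2b3, a plasma membrane calcium pump, was 3.91 to 20.0 FPKM in unmarked and at most 3.45 FPKM in marked neurons. Gucy1a1, a subunit of the nitric oxide receptor guanylate cyclase, was 11.6 to 24.0 FPKM in unmarked and at most 10.1 FPKM in marked neurons. Trim44, Gm43444, Atp2b3, Gucy1a1, Tacc2 and Zfp941 had the smallest exact p the design allows, 0.000162, at an adjusted p of 0.879 over all genes.

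All 10 marker genes of astrocytes had a higher mean in marked neurons, with a median difference of 2.14. Of these, 5 had an unadjusted exact p under 0.05, against 1.63% of all genes, and 0 passed the adjustment over all genes. All 10 were at 1 FPKM or more in at least 4 neurons, and among all such genes that share was 3.74%. DESeq2 called 2 of the 10, Aqp4 and Aldh1l1, at adjusted p-values of 0.000222 and 7.12e-06. Of all 13901 genes with a DESeq2 adjusted p, it called 4.3% as higher in marked neurons. The glutamate transporter Slc1a3 was 0 in Neurons 1 and 14, and Neurons 4, 16 and 18 held 0.46, 0.03 and 9.44 FPKM. It reached 1 FPKM in 11 of 12 marked neurons, with a median of 31.6 and a maximum of 117 FPKM (exact permutation p = 0.00275). The water channel Aqp4 was at most 0.53 FPKM in unmarked neurons and had a median of 14.2 FPKM in marked neurons (exact permutation p = 0.00501). Slc1a2, Aldh1l1 and Gja1 had exact permutation p-values of 0.00695, 0.0323 and 0.0443, of which that of Aldh1l1 was 0.0516 without Neuron 1 and that of Gja1 0.0808 without Neuron 16. Aldh1l1 and Gfap had 0 fragments in all unmarked neurons. Without Neurons 1, 14 and 18 the differences of Fabp7 and S100b turned to -0.34 and -1.09.

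Summed over the astrocyte list, marked neurons held 307 to 8310 FPKM with a median of 2839, and unmarked neurons 202 to 2619 FPKM with a median of 391. Fabp7, a fatty acid binding protein of radial glia, was found in all 17 neurons, at 154.5 to 6040 FPKM in marked and 88.2 to 2070 FPKM in unmarked neurons. Neuron 13, with the highest Slc6a5, had the lowest sum of the marked class and 0 FPKM of Slc1a3 and Aqp4. In aspirated cytoplasm, transcripts of the neuron and of adjoining cells cannot be told apart, and the part of the astrocyte markers in the differences of Slc6a11 and other genes was not tested.

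Markers of the oligodendrocyte lineage had a higher mean in marked neurons for all 7 genes, at a median difference of 1.41, but 0 had an exact p under 0.05. Their sums were 0.48 to 1712 FPKM in marked and 0.20 to 95.2 FPKM in unmarked neurons, with Olig2, Sox10, Pdgfra and Cspg4 below 1 FPKM in all unmarked neurons. Of these DESeq2 called Olig2 (adjusted p = 8.63e-12, exact permutation p = 0.191). Of 14 microglial markers, 12 had a higher mean in marked neurons, at a median of 0.68 and with 0 at an exact p under 0.05. Microglial sums were 0.28 to 11407 FPKM in marked and 28.1 to 6138 FPKM in unmarked neurons. Tmem119, a microglial marker, had 0 fragments in all unmarked neurons and reached 177 FPKM in Neuron 17 (exact permutation p = 0.115, DESeq2 adjusted p = 0.00549). Blood markers had sums of 0 to 6131 FPKM and 0 to 331 FPKM, with 3 of 5 higher in marked neurons and a median of 0.02. Of the endothelial, cholinergic and monoamine markers with a fragment, 3 of 4, 2 of 4 and 4 of 4 had a higher mean in marked neurons, with 0 at an exact p under 0.05. Chat reached 4.66 FPKM in 1 unmarked neuron and 0 in all marked neurons, while Slc18a3 and Tph2 reached 1 FPKM in 2 and 1 marked neurons.

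**Figure D4:**
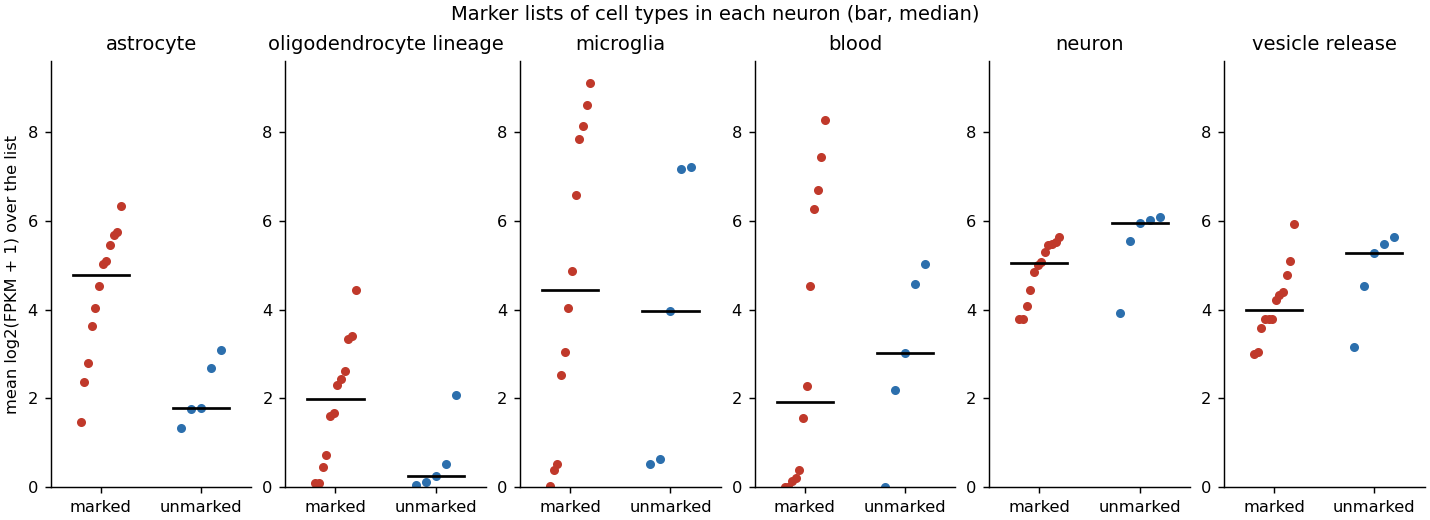
Mean log2(FPKM + 1) over each of 6 gene lists in every neuron, marked in red and unmarked in blue, with a black bar at the median of each class. The astrocyte list has a median of 4.78 in marked and 1.77 in unmarked neurons, and the microglial list spreads widely in both classes.

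General neuronal genes were found in both classes. Of 6 neuron markers 1 had a higher mean in marked neurons, with a median difference of -0.81, and of 12 genes of vesicle release 2 had, with a median of -0.76. None of these had an exact p under 0.05. The calcium sensor Syt1 and the complexin Cplx1, both of synaptic vesicle fusion, had the lowest, at exact permutation p-values of 0.0642 and 0.0829. Tubb3, a neuronal tubulin, was at 1 FPKM or more in 12 of 12 marked and 5 of 5 unmarked neurons. Fewer neuronal transcripts per library and more RNA from other cells cannot be told apart here.

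The called gene, Xist, is the long noncoding RNA that coats the inactive X chromosome. It lies on chromosome X at 103460366 to 103483254, on the minus strand. Neurons 18, 1, 14 and 4 held 67.5, 27.8, 2.54 and 0.90 FPKM, and Neuron 16 held 0. Of the marked neurons only Neuron 7 held any, with 3 fragments. The classes overlapped through Neuron 16 (edgeR adjusted p = 0.000376, DESeq2 adjusted p = 2.96e-07, exact permutation p = 0.00210). The edgeR call was lost when Neuron 7 or Neuron 18 was left out, with 0 genes called, and 2 genes were called without Neuron 16.

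The 4 Y-linked genes Ddx3y, Uty, Kdm5d and Eif2s3y, chosen after these values were seen, ran opposite to Xist. Together they had 472 to 8634 fragments in each of the 12 marked neurons. The unmarked Neurons 1, 4, 14, 16 and 18 had 1, 364, 0, 4925 and 4 fragments. Eif2s3y was 6.37 to 147 FPKM in all marked neurons, 98.8 FPKM in Neuron 16 and 0 in the other unmarked neurons. The labels do not give the sex of the pups. Xist and low Y-linked counts moved with the unmarked class in Neurons 1, 14 and 18. For these neurons the class cannot be told apart from the source of these transcripts, such as the sex of the pup. This limit holds for the marked and unmarked difference of every gene.

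**Figure D5:**
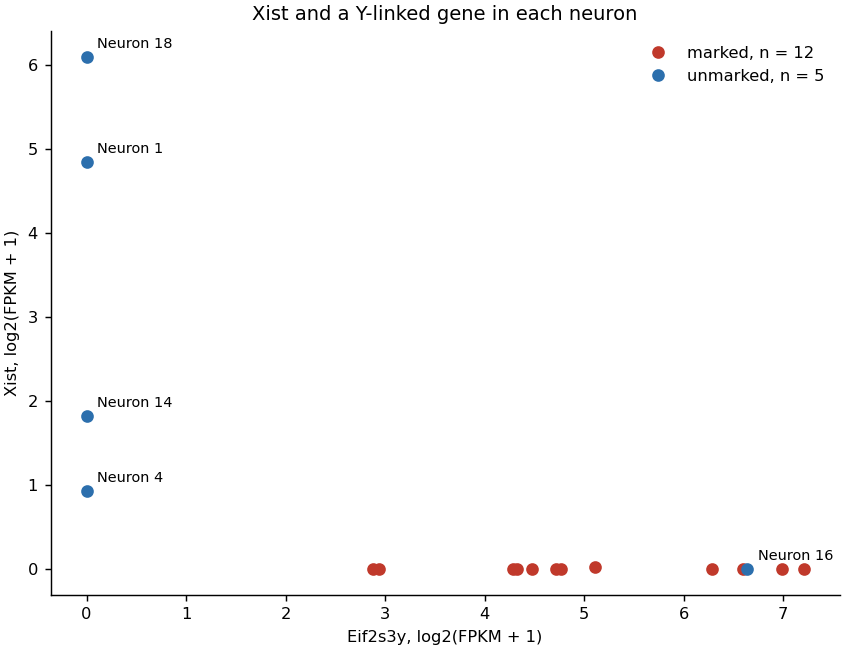
Xist against the Y-linked gene Eif2s3y, both as log2(FPKM + 1), for 12 marked (red) and 5 unmarked (blue, numbered) neurons. All marked neurons lie along the bottom with Eif2s3y above 0, and of the unmarked neurons only Neuron 16 lies among them.

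Without Neurons 1, 14 and 18, which left 2 unmarked neurons, edgeR called 0 genes. The differences in mean log2(FPKM + 1) were then 2.24 for Gad1, 2.21 for Slc6a11, 4.19 for Slc1a3, 2.93 for Aqp4, 2.61 for Sox11 and -2.37 for Nrn1. Those of Kcnip1 and Gja1 fell to 0.94 and 1.40. Without Neurons 7 and 13, the marked neurons with Slc17a6 below 1 FPKM, the differences were 2.01 for Gad1, 2.80 for Slc6a11, 2.53 for Sox11 and -2.52 for Nrn1. Both of these selections were made after seeing the data.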

How the data were processed

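Patch-Seq libraries of 17 neurons were used. Per the labels and the paper, the authors trimmed reads with cutadapt 3.2, aligned them with STAR 2.7.7a to GRCm38 and counted fragments per gene with featureCounts. The fragment counts were deposited as whole numbers without normalization. The authors computed the deposited FPKM from these counts, gene length and library total, and recomputation from the deposited gene lengths agreed to a relative 1.04e-13. The strand setting of the counting is not given in the sources used here, so counts of overlapping genes are uncertain.

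Neurons were classified by FPKM of Slc32a1 and Slc6a5. These members, the gene lists and the rule for named genes were chosen with earlier results of these data known. Named are the rule genes, 25 transmitter, lineage and receptor genes, the 10 genes of lowest edgeR p in each direction, and up to 4 genes per list. The latter were the list genes of lowest edgeR p in the same contrast, among those with an unadjusted p under 0.05. The result of 1 of the 25 is not reported here, though it stays in counts over its list and over all genes. Counts were tested with edgeR 4.0.16 (quasi-likelihood F-test, TMM) over genes with a fragment, without the rule genes, and with DESeq2 1.42.0 and limma 3.58.1 (voom) in R 4.3.3, all with Benjamini-Hochberg adjustment. No covariate was used. Genes without an adjusted p in DESeq2 were not counted as tested by it. Standard errors were taken from the log2 fold change and F. For each gene, means of log2(FPKM + 1) were compared with an exact permutation test over 6188 splits, using scipy 1.17.1 under Python 3.11.15. The scripts were tested on simulated data with these class sizes, where edgeR recovered a minority of the changed genes and DESeq2 called more unchanged than changed genes, so DESeq2 calls are given beside exact p-values and not read alone. Alternatives covered the tool, filter, size factors, thresholds, covariates, pseudocount, unit, limit of the rule and each neuron left out.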

Additional observations from a re-analysis of the deposited data

Results flagged for a closer look

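Among the 5 unmarked neurons, 15 of 55 measures had a neuron far from the other 4, with a gap to its nearest neighbour above 0.71 of the range. In 10 of these the other 4 neurons were at 0, so that any value above 0, even a trace, was set apart by construction. The limit stands for flags in about 1 in 20 groups of normally distributed values, and FPKM values with many zeros are not so distributed. That rate therefore does not apply to the flags in FPKM, these 10 among them. Neuron 18 stood apart with 88.8 FPKM of Evx1, 23.4 FPKM of Dbx2, 124 FPKM of Gm17545 and 9.44 FPKM of Slc1a3. Neuron 4 stood apart with 5.38 FPKM of Slc6a9, 4.71 FPKM of Gja1, 0.531 FPKM of Aqp4 and 0.0332 FPKM of Pax7, and Neuron 1 with 242 FPKM of Gm24988. In Neuron 14 it was Slc1a2, at 2.698 FPKM. Neuron 16 stood apart with 29.1 FPKM of Agt, with 35.5% of its fragments on the 100 highest genes, and with traces of Gad1 (0.0318 FPKM), Tfap2b (0.0767 FPKM) and Sox11 (0.0877 FPKM). The measures without such zeros were Slc1a3, Gja1, Gm17545, Gm24988 and the share of fragments.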

How the results depend on the processing

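The edgeR count of 1 called gene was the same with size factors from nonzero counts, a filter of at least 10 fragments in at least 4 neurons, limits of 0.5 and 2 FPKM, postnatal day or type as a covariate, no fold limit at an adjusted p under 0.05, and without the Unknown neuron. With postnatal day as a covariate and no fold limit, 329 genes had an edgeR adjusted p under 0.05, 19 of them higher in marked neurons. The edgeR count of called genes was 0 at a limit of 5 FPKM, for Slc32a1 alone, for Slc6a5 alone, without Neurons 1, 14 and 18 and without Neurons 7 and 13. It ranged from 0 to 2 with each neuron left out in turn. The voom fit called 43 genes and DESeq2 637. DESeq2 called 261 genes at 5 FPKM (159 of them higher in unmarked neurons), 265 for Slc32a1 alone (152 higher in marked and 113 in unmarked neurons), 290 for Slc6a5 alone (234 and 56), 803 with type as a covariate (615 and 188), 1189 with postnatal day as a covariate (671 and 518) and 1726 without Neurons 1, 14 and 18 (1644 and 82). The causes were not tested. The exact permutation test gave 0 genes at an adjusted p under 0.05 in all alternatives run. No paired analysis was possible because the labels do not tie a neuron to its slice or pup.

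Of 52 genes followed across settings, 32 kept the sign of their difference in mean log2(FPKM + 1). Signs turned with a pseudocount of 0.1 for Lhx1 (0.032) and Sst (1.19). At 5 FPKM they turned for Lhx1 (1.79), Tfap2b (-1.29), Sst (0.73), Glra2 (-0.33) and Gphn (0.50). With Slc32a1 alone they turned for Slc17a8 (-0.079), Gad1 (-0.076), Gad2 (-0.62), Slc6a9 (0.029), Pax2 (0.13), Lhx5 (0.76), Tfap2b (-0.18) and Glra2 (-0.43). With Slc6a5 alone they turned for Slc6a9 (0.054), Lhx1 (0.42), Gata3 (-0.096), Evx2 (0.13), Sst (0.50), Glra2 (-0.92), Glra3 (-0.998), Gphn (0.17) and Gfap (-0.37). Without Neurons 1, 14 and 18 they turned for Pax2 (1.03), Lhx1 (2.14), Lhx5 (1.42), Evx1 (0.092), Evx2 (0.80), Fabp7 (-0.34) and S100b (-1.09). With each neuron left out in turn the differences crossed 0 from -0.38 to 0.29 for Slc6a9, -0.64 to 0.31 for Pax2, -0.62 to 0.89 for Lhx1, -1.53 to 0.092 for Evx1, -1.09 to 0.071 for Evx2, -1.46 to 1.95 for Sst, -0.23 to 0.90 for Glra3, -1.69 to 0.056 for Gm17545 and -1.82 to 0.16 for Gm24988. The share of marked neurons in Type-2 exceeded that in Type-1 by 20.6 percentage points, and by 12.7 to 52.4 points under the other rules (Fisher's exact p from 0.0601 to 1).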

Other observations

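The 4 neurons with both inhibitory transporters, Neurons 3, 8, 9 and 11, are set beside the other marked neurons as values, with no test since the subsets were set by the same genes. Slc6a11 was 1.603 to 19.1 FPKM in all 4, and it also reached 1 FPKM in 2 of the 5 neurons with Slc6a5 only, up to 46.5 FPKM, and in 2 of the 3 with Slc32a1 only, up to 13.3 FPKM. Dbx2 was 3.07 to 38.6 FPKM in all 4 and reached 1 FPKM in 3 of the 5 neurons with Slc6a5 only, up to 41.4 FPKM. In the 3 neurons with Slc32a1 only, Dbx2 was found in Neuron 7, at 41.0 FPKM, and Lhx5, a LIM homeobox factor, was 6.04 to 44.5 FPKM. In the 5 neurons with Slc6a5 only, Lhx5 stayed below 1 FPKM, and Gad1 and Gad2 reached 1 FPKM in 4 neurons each.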
